A study of Rattus norvegicus with 6 samples.

Results

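A set of 9 genes of adrenergic receptor signalling were followed in cultured rat heart muscle cells given the beta-receptor agonist isoproterenol. They are the beta receptors Adrb1 and Adrb3, the alpha-1 receptors Adra1a, Adra1b and Adra1d, the receptor kinases Grk2 and Grk5 and the arrestins Arrb1 and Arrb2. They were chosen by name and function, as 9 genes out of the 20734 rows of the deposited mRNA table, and all 9 were among the 19942 mRNA genes tested. The cells were ventricular myocytes of newborn Sprague-Dawley rats, 1 to 3 days old, freed of most fibroblasts by a pre-plating step and kept in medium without serum before treatment. The isoproterenol group received 10 µM isoproterenol for 24 h and the control group was incubated without it for the same time. Each group had 3 samples, each on 1 single-colour Agilent array. The series text calls the samples biological replicates, but no label ties them to separate litters or cultures, so a p-value here speaks of the scatter among these 6 samples, which may be technical. The labels also speak of cells harvested after passages, and the series text of transfected replicates, which do not match the primary culture and drug treatment given in the protocol.

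In the heart, noradrenaline and adrenaline act mainly through beta receptors, which couple to Gs, raise cAMP and increase the rate and force of contraction. Alpha-1 receptors couple to Gq, activate phospholipase C and drive growth of neonatal cardiomyocytes. After an agonist binds, GRKs phosphorylate the receptor and arrestins then bind it, uncoupling it from its G protein and directing it into the cell.

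Of the 9 genes, 1 fell, 1 rose and 7 did not pass the threshold: Adra1b was 3.80-fold lower and Adra1d 2.05-fold higher with isoproterenol. Of all genes tested, 16.1% passed the same threshold (limma, Benjamini-Hochberg adjusted p under 0.05), 10.2% as higher and 5.93% as lower, so 2 of 9 is close to the share over all genes. The median change of the 9 genes was −0.29 on the log2 scale, against 0.07 over all genes tested.

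Levels are given as log2 signal minus the 75th percentile of the array, so that 0 is the signal below which 75% of the probes lie, and they are compared only within a gene. The arrays came from 2 slides. Slide 1 held the 3 control arrays and isoproterenol replicate 1, and slide 2 held isoproterenol replicates 2 and 3. The 2 arrays of slide 2 were dimmer, with a 75th percentile of 207 and 249.2 signal units against 546.7 to 599.2 on slide 1. Their negative control spots had medians of 84 and 87 against 27 to 30, and 61.31% and 70.89% of their mRNA probes were well above background against 97.69% to 99.8%. The group change is therefore given with all 6 arrays and again within slide 1, where isoproterenol replicate 1 is set against the 3 controls, is assumed to vary as they do, and 5.23% of genes passed. The median change of the 9 genes within slide 1 was 0.08, against 0.11 over all genes. Over the scalings tried, the median change of all genes lay between −0.17 and 0.13, and with normexp background correction it was 0.37. The calls over all genes went from 2031 higher and 1182 lower as reported, to 1378 higher and 1983 lower when arrays were scaled on probes detected on all 6, and to 2112 higher and 749 lower after normexp background correction.

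**Figure D1:**
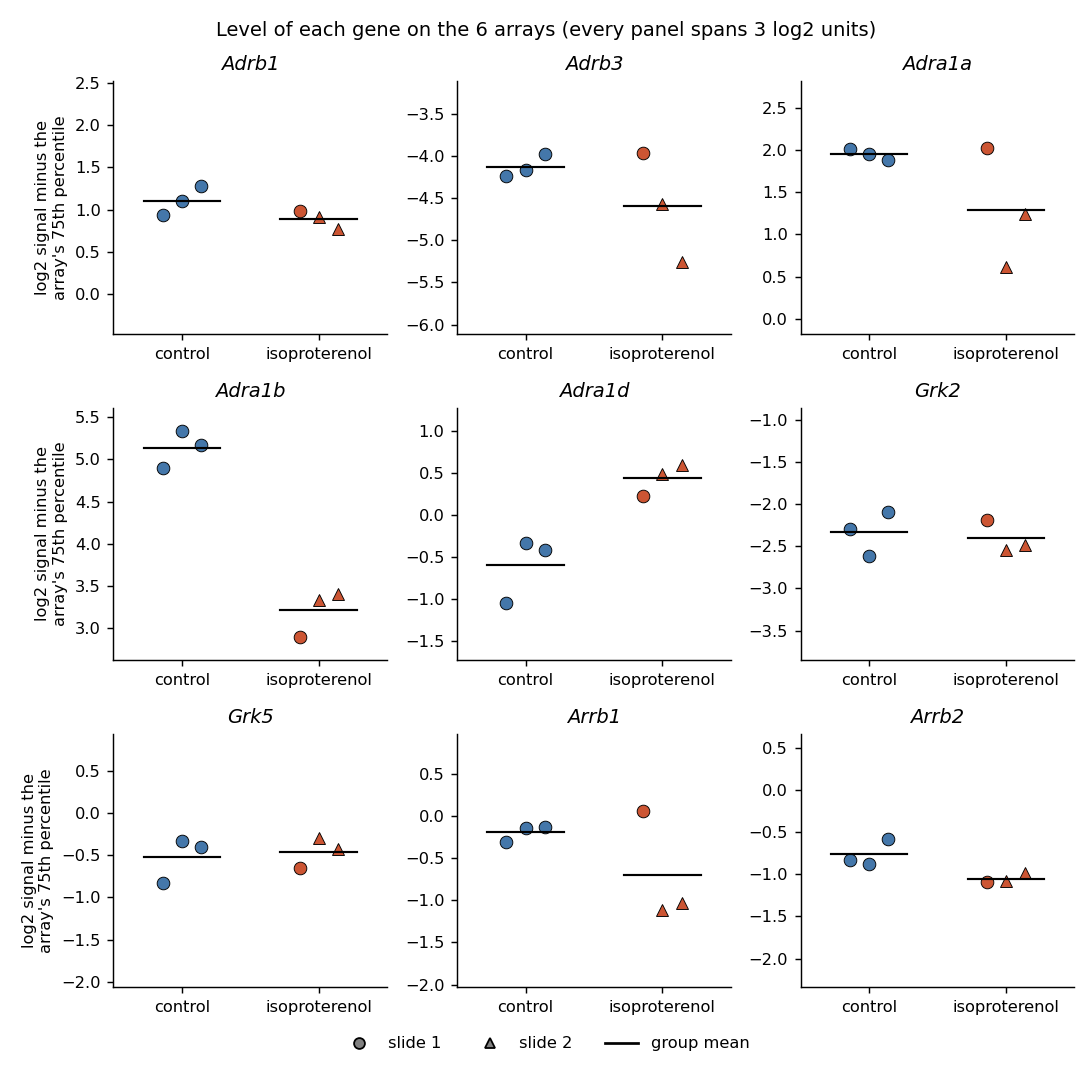
Level of each of the 9 genes on the 6 arrays, as log2 signal minus the array's 75th percentile, with circles for slide 1, triangles for slide 2 and a line at each group mean. Control levels of Adra1b lie between 4.90 and 5.34 and isoproterenol levels between 2.89 and 3.41, while Adrb3, Adra1a and Arrb1 are low on the 2 arrays of slide 2 and not on the isoproterenol array of slide 1.

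Among the beta receptors, Adrb1 encodes the main beta receptor of ventricular myocytes. Its levels were 0.94, 1.10 and 1.28 in control replicates 1 to 3 and 0.98, 0.91 and 0.77 in isoproterenol replicates 1 to 3. The groups overlapped, because isoproterenol replicate 1 lay above control replicate 1. The change was −0.22 ± 0.17 on the log2 scale (SE, n = 3 per group; limma adjusted p = 0.387), with a 95% interval from −0.63 to 0.19, and within slide 1 it was −0.12 (adjusted p = 0.685).

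Adrb3, better known for its role in fat cells, was the gene of the 9 nearest to background. The control levels were −4.24, −4.17 and −3.98 and the isoproterenol levels −3.96, −4.57 and −5.26. Its probe was well above background on all 3 control arrays and on isoproterenol replicate 1 alone among the treated arrays. The change of −0.47 ± 0.33 did not pass the threshold (limma adjusted p = 0.327) and had the opposite sign within slide 1, at 0.16 (adjusted p = 0.555). Leaving out isoproterenol replicate 1 gave −0.79 with limma adjusted p = 0.0346. Of the alternatives tried, Adrb3 passed only there, where the treated group was the 2 arrays of slide 2. In that setting 10395 of all 19942 genes tested passed.

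Of the alpha-1 receptors, 1 fell, 1 rose and 1 did not pass. Adra1b encodes one of the alpha-1 subtypes of the cardiomyocyte. It was at 4.90, 5.34 and 5.17 in the controls and at 2.89, 3.34 and 3.41 with isoproterenol. Every treated array lay below every control array, and the gap between the lowest control and the highest treated array exceeded the spread within either group. The change was −1.92 ± 0.22 on the log2 scale, a 3.80-fold lower level (limma adjusted p = 0.00506; 95% interval −2.44 to −1.41). Within slide 1 the change was −2.25 (adjusted p = 0.0305), and with slide as a random block it was −2.16 (adjusted p = 0.00364). It ranked 205 by p among the 19942 genes.

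Adra1d encodes the alpha-1 subtype best known from vascular smooth muscle. It was at −1.05, −0.34 and −0.41 in the controls and at 0.23, 0.48 and 0.60 with isoproterenol. Control replicate 1 was the lowest array, and no treated array overlapped the controls. The change was 1.04 ± 0.24, a 2.05-fold higher level (limma adjusted p = 0.0334; 95% interval 0.46 to 1.61). Within slide 1 the difference was 0.83, with adjusted p = 0.189. The call was also lost with slide as a random block (adjusted p = 0.0923) and on leaving out any array except isoproterenol replicate 1 (adjusted p = 0.0821 to 0.116), while the sign stayed the same.

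Adra1a encodes the other alpha-1 subtype of the cardiomyocyte. The controls were at 2.01, 1.96 and 1.89, and the treated arrays at 2.03, 0.61 and 1.25. Isoproterenol replicate 1 was above every control, whereas replicates 2 and 3 were below every control. The change of −0.66 ± 0.35 did not pass (limma adjusted p = 0.215; 95% interval −1.48 to 0.17). Within slide 1 it was 0.08. Without isoproterenol replicate 1 it was −1.02 (limma adjusted p = 0.0107), a setting in which 10395 of all 19942 genes tested passed. The value of Adra1a thus depends on which slide supplies the treated arrays.

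**Figure D2:**
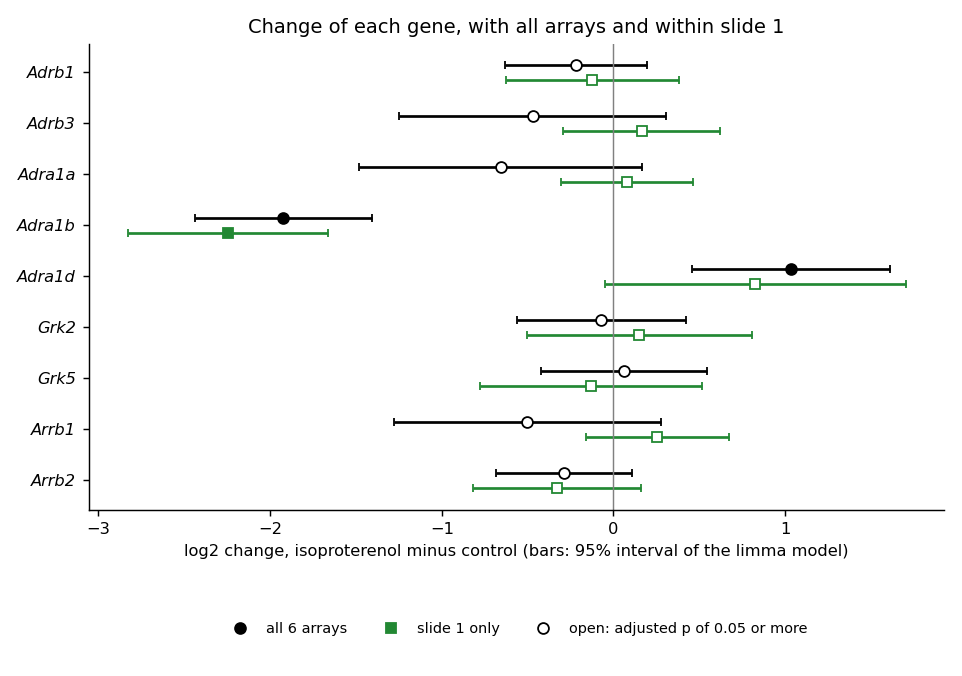
Log2 change of each gene, isoproterenol minus control, with the 95% interval of the limma model, from all 6 arrays (circles) and from slide 1 alone (squares), filled where the adjusted p was under 0.05. Adra1b is at −1.92 and −2.25 and filled in both, and Adra1d is at 1.04 and 0.83 and filled only with all 6 arrays.

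Subtypes were then compared directly, by taking the log2 difference between a pair of genes on the same array, which removes the scaling of the array. The level of such a difference carries the brightness of the 2 probes, so only its change is read. Adra1d minus Adra1b was −5.95, −5.68 and −5.58 in the controls and −2.66, −2.85 and −2.81 with isoproterenol. All 3 treated arrays, on both slides, were shifted by a similar amount. The change in this difference was 2.96 (95% interval 2.62 to 3.30), and within slide 1 it was 3.07. An exact permutation test of 3 against 3 arrays has 20 assignments and cannot give a two-sided p below 0.1. That was the value here (0.2 after Benjamini-Hochberg adjustment over the 6 pairs compared). Adra1b and Adra1d had each separated the groups, in opposite directions. The separation of their difference, and this p, followed from those results and are no further evidence.

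The remaining alpha-1 pairs were less even. Adra1b minus Adra1a changed by −1.27 (95% interval −2.86 to 0.33), and by −2.33 within slide 1. Adra1d minus Adra1a changed by 1.69 (95% interval 0.14 to 3.24), against 0.75 within slide 1. In both pairs the groups did not overlap and the exact permutation p was again 0.1 (adjusted p = 0.2), and in both the treated arrays differed by slide, as did Adra1a itself.

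**Figure D3:**
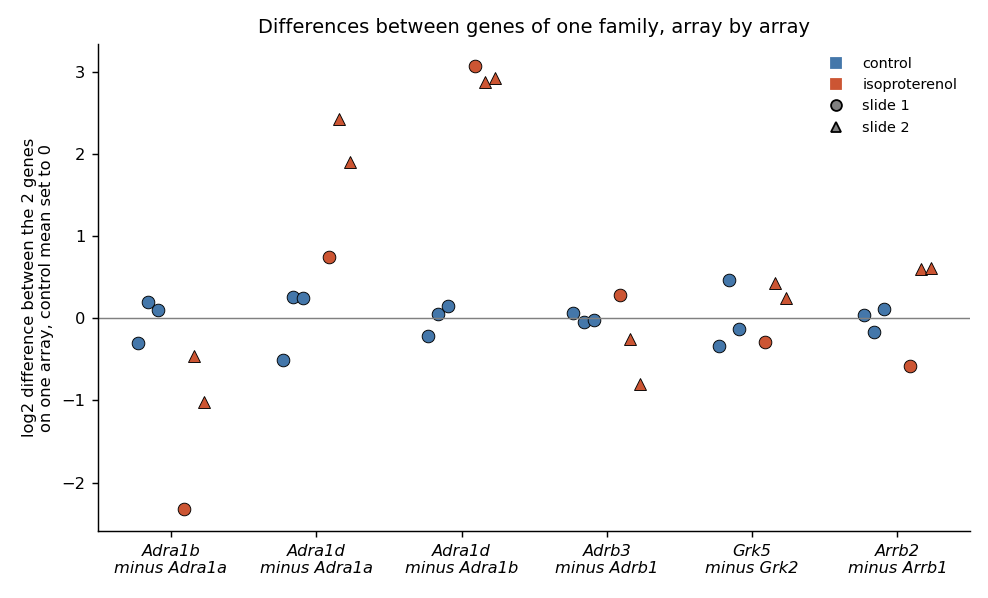
Log2 difference between the 2 genes of each pair on each array, shifted so that the control mean is 0, with colour for the group and shape for the slide. Adra1d minus Adra1b is raised by a similar amount on all 3 isoproterenol arrays (change 2.96), whereas the pairs of beta receptors, GRKs and arrestins overlap between groups.

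The promoters of the 2 genes that changed and of Adrb1 are shown as sequence context for these changes. The windows are the 250 bases before the annotated start, 5′ to 3′ on the strand of the gene, from RefSeq on build GRCr8, which held entries for 5 of the 9 genes. The Adra1b window is at chr10:28814348-28814597 (minus strand), the Adra1d window at chr3:139262332-139262581 (minus strand) and the Adrb1 window at chr1:265776853-265777102 (plus strand). Capitals mark matches to any of 6 motifs searched on both strands.
Adra1b: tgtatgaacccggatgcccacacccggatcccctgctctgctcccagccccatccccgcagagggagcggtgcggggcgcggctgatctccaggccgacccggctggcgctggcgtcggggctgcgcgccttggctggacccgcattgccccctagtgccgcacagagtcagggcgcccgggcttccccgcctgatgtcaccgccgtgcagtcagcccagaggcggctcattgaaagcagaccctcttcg
Adra1d: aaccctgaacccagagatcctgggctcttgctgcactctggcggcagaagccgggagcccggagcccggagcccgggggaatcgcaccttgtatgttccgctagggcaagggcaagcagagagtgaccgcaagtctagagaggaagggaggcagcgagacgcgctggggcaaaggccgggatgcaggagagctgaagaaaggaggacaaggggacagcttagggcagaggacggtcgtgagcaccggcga
Adrb1: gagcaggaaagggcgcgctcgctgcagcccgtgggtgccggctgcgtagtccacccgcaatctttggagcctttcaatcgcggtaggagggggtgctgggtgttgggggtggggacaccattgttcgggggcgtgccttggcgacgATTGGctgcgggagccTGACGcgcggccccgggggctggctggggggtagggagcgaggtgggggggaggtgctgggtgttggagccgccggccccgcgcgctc
The Adrb1 window held 1 half-site of the cAMP response element (TGACG), which CREB-family factors bind, 88 to 84 bases before the start, and 1 CCAAT box (CCAAT, as ATTGG) 104 to 100 bases before it. Neither the Adra1b nor the Adra1d window held a match to these or to the full cAMP response element (TGACGTCA), the GC box (GGGCGG), the TATA box (TATAAA) or the MCAT element (CATTCC). Over the 33469 rat promoter windows searched, 1.59% held TGACGTCA, 18.2% TGACG, 34% CCAAT, 30.5% GGGCGG, 12.9% TATAAA and 12.1% CATTCC; a full cAMP response element also contains the half-site. These matches describe letters in a window and not binding.

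Of the receptor kinases, Grk2 is the GRK recruited to activated receptors by G-protein beta-gamma subunits. It was at −2.30, −2.62 and −2.09 in the controls and at −2.18, −2.55 and −2.49 with isoproterenol, so the groups overlapped throughout. The change was −0.07 ± 0.21 (limma adjusted p = 0.825; 95% interval −0.56 to 0.42), and it was above 0 under quantile normalization, normexp correction and within slide 1 (0.15). Its probe was not well above background on 1 of the treated arrays.

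Grk5 is a GRK anchored at the plasma membrane that is abundant in heart. It was at −0.82, −0.34 and −0.40 in the controls and at −0.65, −0.30 and −0.42 with isoproterenol. The groups overlapped, with isoproterenol replicate 2 above every control and control replicate 1 below every treated array. The change was 0.06 ± 0.20 (limma adjusted p = 0.846; 95% interval −0.42 to 0.55), below 0 with scaling on probes detected on all arrays and at −0.13 within slide 1. The 95% intervals of both kinases did not reach the change of Adra1b (−1.92). They carry only the scatter among the arrays, and not the dim signal of the Grk2 probe or the choice of processing. Grk5 minus Grk2 changed by 0.13 (95% interval −0.77 to 1.03; exact permutation p = 0.8).

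Arrb1 and Arrb2 encode the beta-arrestins, which bind phosphorylated receptors throughout the body. Arrb1 was at −0.31, −0.14 and −0.13 in the controls and at 0.06, −1.12 and −1.03 with isoproterenol. As with Adra1a, isoproterenol replicate 1 was above every control and the 2 arrays of slide 2 were below them. The change of −0.50 ± 0.33 did not pass (limma adjusted p = 0.301) and was 0.26 within slide 1. It was −0.88 (limma adjusted p = 0.00341) without isoproterenol replicate 1, where 10395 of all 19942 genes tested passed.

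Arrb2 was at −0.84, −0.88 and −0.58 in the controls and at −1.09, −1.08 and −0.98 with isoproterenol. All treated arrays were below all controls, on both slides, by a small margin. The change was −0.29 ± 0.17 (limma adjusted p = 0.249; 95% interval −0.69 to 0.11) and −0.33 within slide 1 (adjusted p = 0.300), so it did not pass. Arrb2 minus Arrb1 changed by 0.21 (95% interval −0.92 to 1.34; exact permutation p = 0.6), and by −0.59 within slide 1. Adrb3 minus Adrb1 likewise changed by −0.25 (95% interval −1.13 to 0.62; exact permutation p = 0.6).

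Groups did not overlap for 3 of the 9 genes, Adra1b, Adra1d and Arrb2, where 41.4% of all genes tested showed the same. The 2 arrays of slide 2 lay below all 4 arrays of slide 1 for 4 of the 9 genes, Adrb1, Adrb3, Adra1a and Arrb1, against 24.3% of all genes, and above them for Adra1d alone, against 33.4%. For these 4 genes in that order, the mean of the slide 2 arrays minus isoproterenol replicate 1 was −0.14, −0.95, −1.10 and −1.14. Slide 2 held no control array. Slide therefore cannot be told apart there from treatment or from scatter among the treated arrays.

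**Figure D4:**
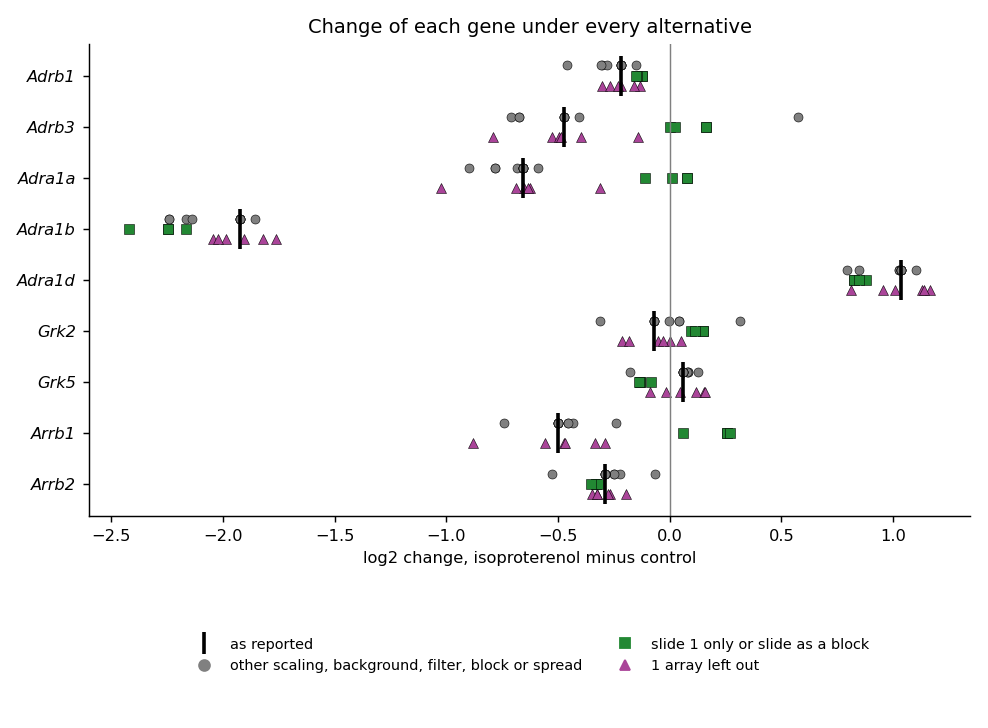
Log2 change of each gene, isoproterenol minus control, as reported (bar) and under every alternative: other scalings, filters and models (circles), slide 1 alone or slide as a block (squares) and 1 array left out (triangles). Adra1b stays between −2.42 and −1.76 and Adra1d between 0.80 and 1.17, while Adrb3, Adra1a, Grk2, Grk5 and Arrb1 lie on both sides of 0.

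Among 13184 named genes, the profiles over the 6 arrays closest to Adra1b, by root-mean-square difference of centred log2 levels, were those of Rragd (0.080), Clybl (0.096) and Tmem276 (0.099). Rragd encodes a Rag GTPase of nutrient signalling and changed by −1.85 ± 0.25 (limma adjusted p = 0.00820). Closest to Adra1d were Il33 (0.066), a cytokine of the interleukin-1 family, C7h8orf76 (0.099) and Kntc1 (0.127), a kinetochore protein. Il33 changed by 1.06 ± 0.21 (limma adjusted p = 0.0206). These were ranked by likeness over the same arrays, so their changes repeat that choice.

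Of the adrenergic receptors and GRKs outside the 9 genes, 6 of 8 genes examined were tested, of which 2 rose, none fell and 4 did not pass, a share above the 16.1% over all genes. The median change was 0.41 (0.63 within slide 1), against 0.07 (0.11) over all genes tested. Both risers were alpha-2 receptors, which couple to Gi, whereas the third alpha-2 receptor, Adra2c, had a change of −0.72 ± 0.28 that did not pass (limma adjusted p = 0.120; within slide 1, −0.24). Adra2a was at −3.39, −3.67 and −3.42 in the controls and at −2.14, −1.43 and −1.16 with isoproterenol. It rose by 1.92 ± 0.28 (limma adjusted p = 0.00907) with all 6 arrays and by 1.36 within slide 1 (adjusted p = 0.0376), with all treated arrays above the controls. Adra2b was at −2.93, −2.55 and −2.93 in the controls and at −1.64, −1.05 and −0.66 with isoproterenol. It rose by 1.69 ± 0.28 (limma adjusted p = 0.0128), and within slide 1 the difference was 1.16 (adjusted p = 0.0564). Grk3 and Grk6 had changes of 0.59 ± 0.36 and 0.24 ± 0.18 that did not pass (limma adjusted p = 0.272 and 0.372), and Grk3 was −0.26 under quantile normalization. The Grk3 probe was well above background on only 2 control arrays and 1 treated array, and the Adra2c probe on 2 of 3 treated arrays.

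Of 26 tested G-protein subunits, none rose, 2 fell and 24 did not pass, a smaller share than the 16.1% called over all genes, and the median change was −0.13 (0.12 within slide 1). Gnb3, a beta subunit, fell by 2.66 on the log2 scale ± 0.36 (limma adjusted p = 0.00789), with control levels of 3.60, 4.37 and 3.92 and treated levels of 0.60, 1.83 and 1.49. Every treated array was far below every control, and within slide 1 Gnb3 was at −3.36 (adjusted p = 0.0305). Gna15, a Gq-family alpha subunit best known from blood cells, fell by 0.80 ± 0.17 (limma adjusted p = 0.0248), and within slide 1 it was at −0.63 and did not pass (adjusted p = 0.0882). Changes of the alpha subunits used by the receptors above did not pass. They were −0.16 for Gnas (Gs; limma adjusted p = 0.584), −0.25 for Gnai2 (adjusted p = 0.360), 0.05 for Gnai3 (adjusted p = 0.850) and 0.09 for Gnaq (Gq; adjusted p = 0.753).

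Downstream of Gq, 15 genes were tested, of which none rose and 1 fell, a share below 16.1% (median −0.11; within slide 1, −0.10). That gene, Dgkz, encodes a diacylglycerol kinase, which removes the second messenger made by phospholipase C, and it fell by 1.67 ± 0.29 (limma adjusted p = 0.0147). Within slide 1 it was at −1.04 and did not pass (adjusted p = 0.0555). Downstream of Gs, 15 genes were tested, of which 2 rose and 2 fell, a share above 16.1% (median 0.06; within slide 1, 0.05). Adcy5, a major adenylyl cyclase of the heart, was at 3.38, 3.64 and 3.50 in the controls and at 1.63, 0.34 and 0.82 with isoproterenol. It fell by 2.57 ± 0.33 (limma adjusted p = 0.00697), and was at −1.87 within slide 1 (adjusted p = 0.0290). Adcy7, another cyclase, rose by 1.37 ± 0.20 (limma adjusted p = 0.00887; within slide 1, 1.12 with adjusted p = 0.0344). The catalytic subunit gene Prkaca of protein kinase A fell by 1.16 ± 0.24 (limma adjusted p = 0.0242) and the regulatory subunit gene Prkar2a rose by 0.76 ± 0.16 (adjusted p = 0.0248), neither of which passed within slide 1 (adjusted p = 0.0621 and 0.0735).

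Of 30 tested genes for receptor trafficking and scaffolding, 2 rose and 2 fell, a share below 16.1% (median 0.26; within slide 1, 0.12). Clta, a clathrin light chain, fell by 1.44 ± 0.26 (limma adjusted p = 0.0152). Arrdc3, an alpha-arrestin of receptor trafficking, fell by 0.92 ± 0.24 (adjusted p = 0.0472), but was at 0.12 after normexp correction and its probe was well above background on 2 of 3 treated arrays. Akap5, which anchors protein kinase A near receptors, rose by 0.90 ± 0.23 (limma adjusted p = 0.0398), and Gopc, a Golgi PDZ protein, by 0.86 ± 0.18 (adjusted p = 0.0233). None of these 4 passed within slide 1 (adjusted p from 0.0602 to 0.207).

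For catecholamine synthesis, uptake and breakdown, 12 genes were tested, of which 1 rose and none fell, again below 16.1% (median 0.020; within slide 1, 0.12). Maoa, which breaks down noradrenaline, rose by 1.30 ± 0.24 (limma adjusted p = 0.0178). Within slide 1 the difference was 0.87 (adjusted p = 0.0752).

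Among 34 other G-protein-coupled receptors of the heart, 3 rose and 3 fell, close to the 16.1% over all genes (median −0.17; within slide 1, 0.15). The sphingosine-1-phosphate receptor S1pr1 rose by 2.02 ± 0.36 (limma adjusted p = 0.0154), the bradykinin receptor Bdkrb1 by 1.92 ± 0.36 (adjusted p = 0.0178) and the muscarinic receptor Chrm3 by 1.11 ± 0.30 (adjusted p = 0.0480), the last with a probe well above background on 1 treated array. The prostaglandin F receptor Ptgfr fell by 1.38 ± 0.21 (limma adjusted p = 0.0103), the endothelin receptor Ednra by 1.32 ± 0.22 (adjusted p = 0.0134) and the muscarinic receptor Chrm2 by 0.92 ± 0.20 (adjusted p = 0.0277). All 3 that fell also passed within slide 1 (adjusted p = 0.0491, 0.0305 and 0.0453), and the 3 that rose did not (adjusted p = 0.126, 0.152 and 0.0555). Chrm3 was at 0.16 under quantile normalization (adjusted p = 0.898) and at 0.38 with the deposited values (adjusted p = 0.678). Under normexp correction Ednra was at −0.73 (adjusted p = 0.0742) and Chrm2 at −0.58 (adjusted p = 0.0946), and Chrm2 was also lost with median scaling (adjusted p = 0.0665). Of the 20 pathway genes named as risen or fallen, Gnb3 and Adcy5 passed with any 1 array left out. Leaving out control replicate 2 or control replicate 3 each lost the other 18 calls, control replicate 1 lost 10, isoproterenol replicates 2 and 3 lost 12 and 13, and isoproterenol replicate 1 lost none. Calls over all genes moved the same way, from 3213 to 500 and 369 without control replicates 2 and 3. They were 1441 without control replicate 1, 1281 and 832 without isoproterenol replicates 2 and 3, and 10395 without isoproterenol replicate 1. Over the other 14 alternatives (13 for Arrdc3 and Chrm3), no call was lost for Adra2a, Gnb3, Adcy5, Adcy7 and Ptgfr, 1 was lost for Dgkz, Clta and Ednra, 3 for Adra2b, Maoa and Chrm2, and 4 for Gna15, Gopc and S1pr1. For Prkaca, Prkar2a and Bdkrb1 5 were lost, for Akap5 7 and for Chrm3 11, and Arrdc3 lost 9 and reversed in 1.

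**Figure D5:**
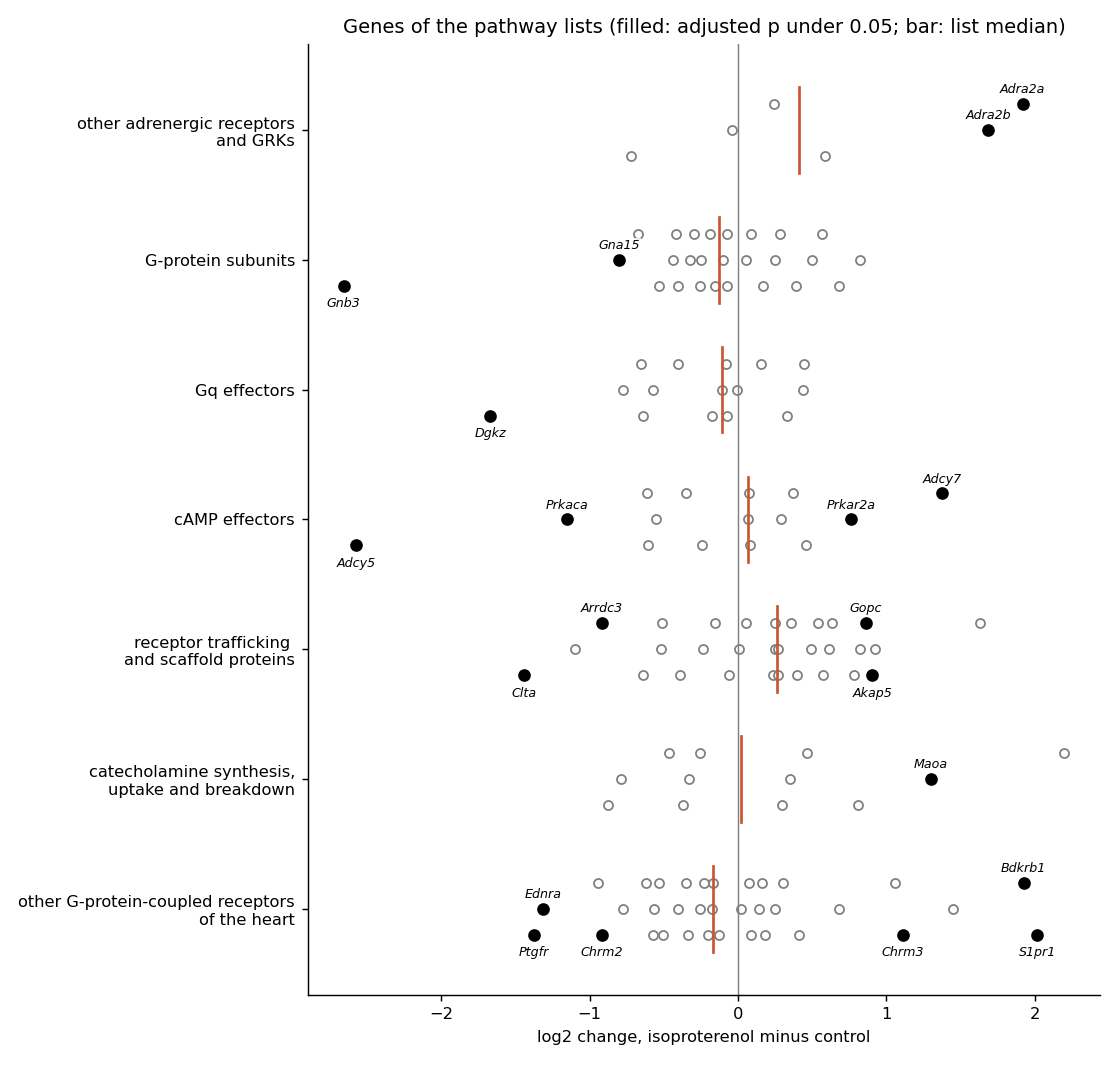
Log2 change, isoproterenol minus control, of each tested gene of the 7 pathway lists, with named filled points where the limma adjusted p was under 0.05 and a bar at each list median. Adra2a and Adra2b lie at 1.92 and 1.69, and Gnb3 and Adcy5 at −2.66 and −2.57.

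Cell type markers were read beside these results, with 16.1% of all genes called as the share to read each count against. All 10 cardiomyocyte markers tested, of 11 listed, were well above background on every array. Their summed linear level, relative to the 75th percentile, was 1772 to 2138 in the controls and 2119 to 3263 with isoproterenol. The sum of 2119 was that of isoproterenol replicate 1, on slide 1, and lay within the control range. The median change of these markers was 0.34 with all arrays and 0.07 within slide 1. Changes ran from −0.82 for Pln (limma adjusted p = 0.0535) to 1.23 ± 0.23 for the myosin heavy chain gene Myh6, the 1 call (limma adjusted p = 0.0182). Within slide 1 the lowest were Pln at −1.24 and Mybpc3 at −1.15, the latter at −0.39 with all arrays. Myh6 did not pass within slide 1 (0.82, adjusted p = 0.0903) or under quantile normalization (0.63, adjusted p = 0.0630). Smooth muscle and pericyte markers summed to 84.3 to 149.8 in the controls and 217.7 to 497.8 with isoproterenol, and 2 of 7 tested rose. These were Acta2 and Tagln, which neonatal cardiomyocytes also express, and neither passed within slide 1 (1.16 with adjusted p = 0.316, and 1.03 with adjusted p = 0.0795). Changes of the other 5 lay between −0.39 and 1.07, the highest being that of the pericyte marker Cspg4 (limma adjusted p = 0.0604), and the smooth muscle myosin Myh11 was at −0.28 with all arrays (adjusted p = 0.660) and at 0.64 within slide 1 (adjusted p = 0.282). These 4 smooth muscle and pericyte genes, and Adra2c above, were named after their values were seen. Adra1d and the smooth muscle sum were both higher with isoproterenol, on slide 1 (217.7 in isoproterenol replicate 1) as well as on slide 2. That sum came almost wholly from Acta2 and Tagln. Their control means were 4.88 and 6.19 on the log2 scale, against 0.29 or less for the other 5 genes. The sum thus follows 2 genes that are not particular to smooth muscle. The part of smooth muscle cells and pericytes in the Adra1d result was not tested. Fibroblast markers, of which 2 of 11 rose and 4 fell, a share above 16.1%, had a median change of −0.47 (−0.81 within slide 1). They summed to 156.7 to 165.4 in the controls and 133.4 to 178.7 with isoproterenol. The sum of 133.4 was that of isoproterenol replicate 1, below every control on the same slide. Endothelial markers summed to 15.6 to 17.6 and 15.6 to 16.8, with 1 of 9 higher and 1 lower, and leukocyte markers to 14.1 to 23.3 and 16.6 to 21.5, with 1 of 6 higher. Sums for Schwann cells were 0.57 to 0.61 and 0.49 to 0.61, with 1 of 5 lower, and for sympathetic neurons 3.86 to 4.19 and 4.39 to 6.16, with no call among 3. Changes of the 3 neuron genes ran from −0.37 to 0.47 with a median of −0.25, so they did not rise together. In these bulk samples, fewer cells of a type and less RNA per cell cannot be told apart.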

How the data were processed

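The scanner files hold Agilent Feature Extraction 11.0.1.1 output, per the file headers, whose processed signal is a background-corrected intensity on a linear scale. The authors' deposited mRNA table holds log2 values; it gave gene identities, and its values served as an alternative. Its rows carry accessions and no probe, so each was matched to the probe with the same values on the 4 arrays of slide 1, after quantile normalization (distance under 0.05, and under 0.25 of that to the next probe). This matched 20639 of 20734 rows, and 95 were left out. RefSeq (GRCr8) named 13956 of the 14757 RefSeq accessions, and 5977 Ensembl rows stayed unnamed. Each of the 9 genes had 1 probe with 1 spot and no outlier flag. No spot was saturated, and the number of arrays, 3 per group, limits the precision.

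Intensities were log2 transformed and the 75th percentile of each array was subtracted. Probes well above background on at least 3 of 6 arrays were tested, which all matched rows were, with the brightest probe per gene. The test was limma 3.58.1 in R 4.3.3 (lmFit and eBayes, two-sided, no covariate), with Benjamini-Hochberg adjustment over 19942 mRNA genes and a threshold of 0.05. The code was tested on simulated data without a slide effect, which says nothing of error rates under the slide layout used here. Slides were read from the array position and scan in the headers. Pairs of genes were compared with an exact permutation test. Alternatives were other scalings, normexp correction with an offset of 50 (on median spot signals, in place of the planned mean signals), deposited values, other filters, slide or replicate number as a block, slide 1 alone, a variance trend and leaving out each array. Slide 1 alone with quantile normalization, and a spread estimated over all probes of the array, were added after seeing the data.

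Genes named are the 9 genes, those past the threshold in each pathway list (at most the 6 largest), Grk3, Grk6, Gnas, Gnai2, Gnai3, Gnaq and Arrdc3 in any case, cardiomyocyte markers, and the 3 nearest profiles of each changed gene. The genes, lists and motifs were chosen with earlier results of these data known. Some listed genes are not reported here and were left out of the pathway lists.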

Additional observations from a re-analysis of the deposited data

How the results depend on the processing

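The fall of Adra1b passed the threshold under all 20 alternatives tried, including each leave-one-out, with changes from −2.42 to −1.76. Adrb1 and Arrb2 kept their sign and did not pass under any of the same 20. Adra1d kept its sign throughout but did not pass with scaling on probes detected on all arrays (0.80, adjusted p = 0.0549), slide as a fixed block or slide 1 alone (0.83), slide as a random block (0.88), slide 1 alone with quantile normalization (0.85) and 5 of 6 leave-one-outs (0.81 to 1.17). The values below come in the order slide fixed block, slide 1 alone, random block, slide 1 alone with quantile normalization. The sign turned for Adrb3 (0.16, 0.16, 0.00010, 0.022; 0.57 with normexp), Grk2 (0.15, 0.15, 0.094, 0.11; 0.040 quantile, 0.32 normexp, 0.042 deposited values), Grk5 (−0.13, −0.13, −0.082, −0.14; −0.18 on probes detected on all arrays), Arrb1 (0.26, 0.26, 0.061, 0.27) and Gnai3 (−0.056, −0.056, −0.028, −0.066; −0.19 on probes detected on all arrays). Adra1a turned in the fixed block and slide 1 (0.079) and in slide 1 with quantile normalization (0.0089). Single turns were Arrdc3 with normexp (0.12), Grk3 with quantile normalization (−0.26) and Gnaq on probes detected on all arrays (−0.15). Pair differences turned for Adrb3 minus Adrb1 (normexp 0.85, slide 1 0.29), Grk5 minus Grk2 (normexp −0.24, slide 1 −0.28) and Arrb2 minus Arrb1 (slide 1 −0.59). Leave-one-out ranges were −0.79 to −0.14 for Adrb3, −1.02 to −0.31 for Adra1a, −0.21 to 0.053 for Grk2, −0.090 to 0.16 for Grk5, −0.88 to −0.29 for Arrb1, −0.25 to 0.0013 for Gnas, −0.046 to 0.11 for Gnai3, −0.034 to 0.20 for Gnaq, −0.52 to 0.019 for Adrb3 minus Adrb1 and −0.038 to 0.37 for Grk5 minus Grk2. Leaving out isoproterenol replicate 1 alone took Adrb3, Adra1a and Arrb1 past the threshold. In that setting 10395 of all 19942 genes tested passed, against 3213 as reported. The cause was not tested.

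Over all genes, 3213 calls became 1454 with slide as a fixed block, 1043 in slide 1, 2124 with the random block, 1373 in slide 1 with quantile normalization, and 369 (without control replicate 3) to 10395 (without isoproterenol replicate 1) in leave-one-outs. With the replicate number as a block there were 1452 calls, and both Adra1b and Adra1d passed (adjusted p = 0.0260 and 0.0492). Deviations from the group mean on same-numbered control and isoproterenol arrays had correlations of 0.0056, 0.052 and −0.023. In the treated group such deviations also carry the slide, since replicate 1 was on slide 1 and replicates 2 and 3 on slide 2. The correlations therefore cannot settle whether the numbers pair the samples. The absence of a filter left the set unchanged, and no gene of the 9 had a further probe to try. Adrb3 and Grk2 have no value when every array must be well above background, and their signals near background limit what can be said of them.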
